A study of Mus musculus with 12 samples.

Results

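The effect of rapamycin that was common to healthy and to challenged mouse aortas was measured over all 12 arrays of the series, 6 with rapamycin in the treatment label and 6 without. Each array held total RNA from a stretch of aorta of 10 mm above the branch of the right renal artery, taken from C57BL/6J mice on day 3. The mice were males of 11 to 14 weeks. The DMSO group (n = 3) is labelled as given the solvent alone, although its array titles read Pre, and the rapamycin group (n = 3) received rapamycin at 2 mg/kg/day. The 6 challenged samples came from a model of aortic dissection, at a time before dissection develops in it, in which mice receive beta-aminopropionitrile (BAPN) at 150 mg/kg/day and angiotensin II (AngII) at 1 µg/kg/min, a combination abbreviated BA. They formed the BA+DMSO group (n = 3) and the BA+rapamycin group (n = 3, the same rapamycin dose), and by these labels the solvent or the drug in it was given in every group. BAPN blocks the enzymes that cross-link collagen and elastin, and AngII is a peptide hormone that acts on vascular cells. Since 10 mm of whole vessel wall was extracted, fewer cells of a type and less RNA per cell cannot be told apart in any value below.

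Rapamycin binds the immunophilin FKBP12, and the complex inhibits mTORC1, a kinase that couples nutrients and growth factors to cell growth. mTORC1 phosphorylates S6 kinase and the 4E-BP proteins, which favours translation of mRNAs that begin with a pyrimidine tract (TOP mRNAs, mostly those of ribosomal proteins and translation factors). It also promotes sterol synthesis through the SREBP transcription factors, serine and one-carbon synthesis through ATF4, and entry into the cell cycle. In arteries rapamycin is known for blocking proliferation of smooth muscle cells, the use it has in coated stents.

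A value here is the log2 signal of a probe minus the 75th percentile of its array. A difference is the mean with rapamycin minus the mean without, on that log2 scale. In the additive fit the difference was adjusted for the challenge, so that each background contributed 3 arrays against 3. A probe was called when its limma p-value, adjusted by Benjamini-Hochberg over all 27801 probes tested, was under 0.05. A member of a list was said to have moved alike when it had the same sign in both backgrounds.

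The arrays were not equally uniform. In BA+DMSO the median SD of a probe between arrays was 0.502, against 0.155 in DMSO, 0.171 in rapamycin and 0.224 in BA+rapamycin. On the first principal component (60.4% of the variance) BA+DMSO replicate 3 lay at -35.5, nearer to the unchallenged arrays (-56 to -88.5) than to BA+DMSO replicates 1 and 2 (67.9 and 96.1). The array 75th percentile was also lower in BA+rapamycin (74.6 to 109 intensity units) than in DMSO (221 to 280) and rapamycin (257 to 337), and it spread widely in BA+DMSO (78.1 to 246). Slide 1 held the 3 DMSO arrays and rapamycin replicate 1, and slide 2 the other 8 arrays, so the challenged comparison lay within 1 slide. The labels do not say which mouse each array came from, so p-values measure the spread between these arrays. Smooth muscle markers (Myh11, Acta2, Tagln, Cnn1, Smtn and Lmod1) were well above background on all 12 arrays.

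The data showed a rapamycin effect that was small for most single genes but pointed the same way in both backgrounds for several gene groups. Genes for mitosis, sterol synthesis, the interferon response and DNA replication were mostly lower with rapamycin. Genes for ribosomal proteins and translation factors were mostly higher. In the additive fit 2 of 27801 probes (0.00719%) were called, and both were lower with rapamycin. One measured Cck, the precursor of the peptide hormone cholecystokinin, and the other an intergenic transcript on chromosome 1. At an unadjusted p under 0.05, 1989 probes (7.15%) were higher and 2107 (7.58%) lower, where 1390 in all would be expected by chance. The uneven BA+DMSO group weighed on these counts. Without BA+DMSO replicate 2 the additive fit called 205 probes (64 higher), without replicate 3 it called 16, and without replicate 1 it called 5. Leaving out BA+DMSO replicate 2 also moved the challenged comparison from 78 to 11092 called probes and the interaction from 0 to 3058, while leaving out replicate 1 moved the former to 224.

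Rapamycin taken separately gave 1 called probe of 27801 in unchallenged mice (0.0036%; Frat2, higher) and 78 in challenged mice (0.281%; 20 higher, 58 lower). A fit of the 6 challenged arrays alone called 0, and one of the 6 unchallenged arrays alone called 3, all lower, so that the Frat2 call was lost. On all 12 arrays the interaction of rapamycin with challenge gave no called probe (0%; limma, smallest adjusted p = 0.308), with 1702 probes at an unadjusted p under 0.05. Of all probes tested, 8060 (29%) were higher with rapamycin in both backgrounds and 8528 (30.7%) lower in both, 59.7% with the same sign in all. In 676 probes (2.43%) every rapamycin array lay above every vehicle array of its own background, and in 678 probes (2.44%) every one lay below. Across probes, which are not independent replicates, the differences of the 2 backgrounds correlated weakly (Pearson's r = 0.183, Spearman's rho = 0.233).

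The backgrounds share no array, so probes chosen in one could be read in the other. Of the 100 probes with the smallest p among those higher in the 6 unchallenged arrays, 83 were also higher in the challenged arrays, where 49.3% of all probes were. Of the 100 probes lower in the unchallenged arrays, 84 were lower in the challenged ones, against 50.7% of all probes. Their median difference was -1.07 where they were chosen and -0.75 where they were only read. For the 100 higher probes these medians were 0.94 and 0.36. In the other direction, 71 of 100 probes chosen as higher and 75 of 100 chosen as lower in the challenged arrays kept their sign in the unchallenged arrays. Here the medians went from 1.34 to 0.22 for the higher probes and from -1.61 to -0.33 for the lower ones. The carry-over was thus visible both ways, with smaller differences in the background that had not been used for the choice.

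**Figure D1:**
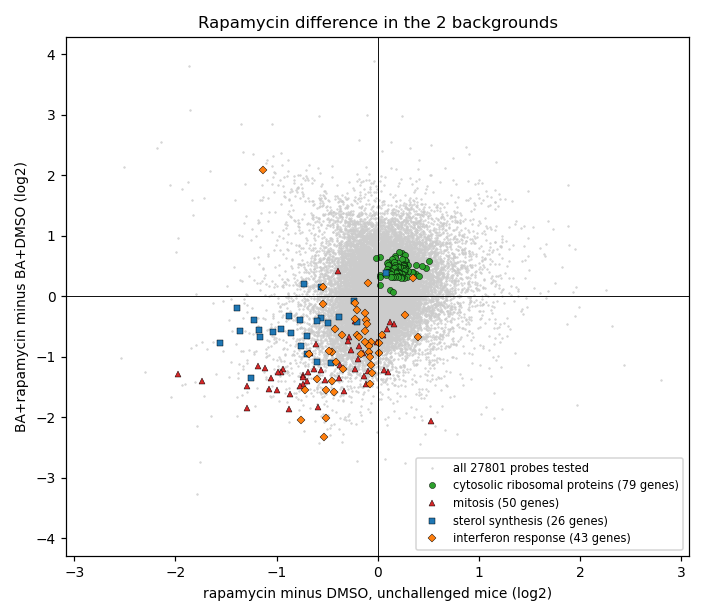
Each grey point is 1 of the 27801 probes, with the log2 difference rapamycin minus DMSO in unchallenged mice on the x axis and BA+rapamycin minus BA+DMSO on the y axis (3 arrays per group). Nearly all ribosomal protein genes (green circles) lie up and to the right of the origin, whereas most genes of mitosis (red triangles), sterol synthesis (blue squares) and the interferon response (orange diamonds) lie down and to the left.

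Sequences are shown for the groups whose members moved alike. The first are starts of genes whose mRNAs are known to begin with a pyrimidine tract. Each line gives 30 bases from the RefSeq annotation (build GRCm38.p6), 15 before the annotated start and 15 from it on. Capitals mark the unbroken run of C and T from the annotated start. Whether that start is the true first base of each mRNA was not tested, so a marked run need not be its pyrimidine tract.
Rps6, chr4:86857353-86857382, minus strand: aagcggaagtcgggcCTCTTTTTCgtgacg
Rpl28, chr7:4792950-4792979, plus strand: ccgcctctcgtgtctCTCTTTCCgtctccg
Fau, chr19:6057932-6057961, plus strand: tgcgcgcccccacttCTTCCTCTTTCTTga
Rpl35, chr2:39005117-39005146, minus strand: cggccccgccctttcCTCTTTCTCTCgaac
Eif3f, chr7:108934400-108934429, plus strand: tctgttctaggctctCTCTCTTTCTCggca
Eef1a1, chr9:78481710-78481739, minus strand: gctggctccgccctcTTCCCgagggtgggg
A run of at least 5 pyrimidines from the annotated start was present in 17 of the 57 ribosomal protein genes that have a promoter in the table (29.8%), against 5.28% of all 27025 genes in it. The median difference was 0.31 for these 17 genes and 0.32 for the 40 without such a run. Among tested genes outside the list, 562 with the run had a median of -0.07 and 10530 without it of -0.08. Only the annotated start was read, so mRNAs of genes counted as without a run may still begin with one. These medians therefore cannot show whether the tract matters, which was not tested.

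The second set are promoter stretches of genes that were lower with rapamycin, again 30 bases each on the strand of the gene and from the same build. Capitals mark 1 match of TTTGAA, the core of the cell cycle homology region, in Cdca5 and Mki67, and the Cdca5 line holds another in lower case. In Igtp, Ifit3 and Ifit1 they mark a form of the interferon-stimulated response element, GAAA, any 2 bases and GAAA again, which in Ifit3 and Ifit1 lies on the opposite strand. In Pycr1 they mark TGATGCAA, a C/EBP-ATF element bound by ATF4.
Cdca5, chr19:6085068-6085097, plus strand: caaggcgggcaaTTTGAAcgtttgaagcag
Mki67, chr7:135716478-135716507, minus strand: ttagcgccagaaTTTGAAccgccgttttgg
Igtp, chr11:58199512-58199541, plus strand: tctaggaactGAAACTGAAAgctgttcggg
Ifit3, chr19:34583363-34583392, plus strand: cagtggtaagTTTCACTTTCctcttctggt
Ifit1, chr19:34640775-34640804, plus strand: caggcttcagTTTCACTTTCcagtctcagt
Pycr1, chr11:120643833-120643862, minus strand: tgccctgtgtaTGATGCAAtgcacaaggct
All motifs were searched on both strands from 250 bases before to 50 after the start. TTTGAA occurred in 28 of 41 mitosis promoters (68.3%) and in 20.2% of all promoters. The interferon element occurred in 15 of 31 interferon response promoters (48.4%) against 3.99%, and TGATGCAA in 8 of 33 promoters of ATF4 and amino acid genes (24.2%) against 1.03%. The E2F site TTTGGCGC occurred in 9 of 35 DNA replication promoters (25.7%) against 0.585%, and the sterol element TCACNCCAC in 1 of 19 sterol synthesis promoters (5.26%) against 1.44%. These are matches of letters in a fixed window. The median difference with and without the motif was -0.94 and -0.86 in the mitosis list, -0.50 and -0.40 in the interferon list, -0.44 and -0.50 in the DNA replication list and -0.27 and -0.24 in the ATF4 list.

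Of single genes, Cck gave the largest difference that was called. Its values were 0.69, 0.64 and 0.64 in DMSO and -0.95, -1.28 and -1.15 in rapamycin. They were -1.08, -0.62 and 0.44 in BA+DMSO and -3.35, -4.16 and -3.53 in BA+rapamycin. All 6 rapamycin arrays lay below all vehicle arrays of their background. The additive difference was -2.52 ± 0.31 (SE; limma adjusted p = 0.0485), and an exact permutation test within the backgrounds gave p = 0.005, the smallest that the 400 arrangements allow (two-sided). The probe (mm9 chr9:121398943-121399002) was not well above background on any BA+rapamycin array, so in challenged mice Cck was at least 4.67-fold lower. The call was lost when any single array was left out (adjusted p = 0.0513 to 0.117), except BA+DMSO replicate 2 (0.0232) or replicate 3 (0.018).

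The other called probe measured a noncoding transcript on the minus strand of chromosome 1 (mm9 chr1:135956757-135956816), for which the array gives no gene symbol. It was chosen for mention because it was called. It fell by 1.48 ± 0.162 on the log2 scale (limma adjusted p = 0.0256) and lay at -1.54 to -2.14 on the vehicle arrays and -3.00 to -3.78 with rapamycin. On the BA+rapamycin arrays it was not well above background, and there it was at least 1.74-fold lower than in BA+DMSO. Its call was lost without DMSO replicate 1 or 2, rapamycin replicate 1 or 2, or any 1 BA+rapamycin array, since those fits called no probe. The other 2 probes of the transcript had differences of -1.37 (adjusted p = 0.0537) and -0.66 (adjusted p = 0.196).

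With these 2 included, 39 probes had an adjusted p under 0.06 and 170 (0.611%) under 0.1. Named here are 15 genes in each direction with the smallest p, well above background on the 6 arrays of the higher arm and moving alike in both backgrounds. Apart from Cck none of the 30 was called in the additive fit (limma adjusted p = 0.0537 to 0.0627). In all 30 the rapamycin and vehicle arrays did not overlap in either background, and each reached the smallest exact permutation p of 0.005. These values come from the contrast that chose the genes and are no further support. When the average of the 2 background differences, the same estimate with another residual, was tested in a model with 4 group means, 85 of all probes were called (24 higher, 61 lower).

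Among the lower genes, Cdca5 encodes sororin, which holds sister chromatids together before mitosis. Its values were -3.35, -2.95 and -3.04 in DMSO and -5.28, -5.03 and -4.97 in rapamycin. They were 1.87, 0.37 and 1.49 in BA+DMSO and 0.30, -0.29 and -0.12 in BA+rapamycin. The drug groups lay below their vehicles although the gene was far higher in both challenged groups. The additive difference was -1.63 ± 0.247 (adjusted p = 0.0537), and in unchallenged mice, where no rapamycin array was well above background, Cdca5 was at least 1.95-fold lower.

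Several of the lower genes act in metabolism. Aldoc, a glycolytic aldolase, stood at -1.04, -1.02 and -0.51 in DMSO and -2.01, -1.98 and -1.77 in rapamycin. In BA+DMSO and BA+rapamycin it stood at -0.48, -0.94 and 0.02 and at -2.06, -2.28 and -1.96, an additive difference of -1.35 ± 0.187. With rapamycin Aldoc lay at nearly the same level in both backgrounds, but only 2 of 3 BA+rapamycin arrays were well above background for it. Gcat, which splits the threonine product 2-amino-3-ketobutyrate into glycine and acetyl-CoA in mitochondria, differed by -0.83 in unchallenged and -0.96 in challenged mice. Impa2, an inositol monophosphatase, differed by -0.87 and -1.52. Stard4, a carrier of cholesterol between membranes that is induced with the sterol synthesis genes, differed by -0.86 and -0.61. Slc17a9, the vesicular transporter of ATP, differed by -0.81 and -0.74, nearly the same difference although the challenged vehicle arrays (0.20 to 0.66) lay far above the unchallenged ones (-1.63 to -1.51).

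Apol9b and Apol9a, apolipoprotein L genes induced by interferon, differed by -1.14 ± 0.163 and -1.02 ± 0.163 in the additive fit. Apol9b stood at 1.34, 1.61 and 1.52 in DMSO, 0.63, 0.65 and 0.15 in rapamycin, 2.23, 2.16 and 2.85 in BA+DMSO and 0.86, 1.36 and 1.25 in BA+rapamycin. The 2 genes are near-identical neighbours, so their probes may report in part on each other. Camk2b, a subunit of a calcium-dependent kinase, differed by -0.88 and -1.30 in the 2 backgrounds. Mia1, a small secreted protein of cartilage and melanoma, differed by -0.92 and -1.27. For Ptgis, the prostacyclin synthase, the probe named here differed by -0.90 in the additive fit while a second probe differed by 0.03, so the probes disagreed. The remaining lower genes were Myadml2 (-1.53), AI646023 (-1.25) and 4631405J19Rik (-1.31), whose functions are less known.

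Among the higher genes, Frat2, which binds and restrains the kinase GSK3 in the Wnt pathway, had one of the largest differences. It stood at -2.61, -2.64 and -2.30 in DMSO and -0.50, -0.94 and -0.44 in rapamycin. In challenged mice it stood at -1.51, -1.97 and -2.0 without and -1.02, -0.80 and -1.09 with rapamycin. Its difference was 1.89 in unchallenged and 0.86 in challenged mice (interaction, limma adjusted p = 0.584), and its second probe differed by 0.45. Frat1, its neighbour and paralog, was not among the 30 but differed by 1.5 and 0.44.

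Pim1, a serine/threonine kinase that promotes survival and translation, stood at -2.22, -2.14 and -1.97 in DMSO and -0.85, -0.93 and -1.02 in rapamycin. In BA+DMSO it stood at -0.56, -0.82 and -0.90, and in BA+rapamycin at 0.09, 0.37 and -0.40. Challenge and rapamycin each went with a higher Pim1, and the highest values were those with both. Sik1, a salt-inducible kinase, differed by 0.78 and 1.23, and Maff, a small Maf transcription factor, by 1.42 and 1.13. Mdk, the heparin-binding growth factor midkine, differed by 0.73 and 0.72 (second probe 0.69 in the additive fit). Chst11, a sulfotransferase of chondroitin synthesis, differed by 0.55 and 0.79.

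Pappa2, a protease that releases insulin-like growth factor from its binding protein, stood at -2.15, -2.96 and -2.32 in DMSO, -1.70, -1.72 and -1.77 in rapamycin, -1.32, -1.31 and -1.52 in BA+DMSO and 1.08, 0.97 and 0.66 in BA+rapamycin. Its difference was thus 0.74 in unchallenged and 2.29 in challenged mice (interaction, limma adjusted p = 0.464). E330037I15Rik differed by 0.90 and 1.92, Zfp52, a zinc finger gene, by 0.71 and 1.2, and Pax1, a paired-box transcription factor, by 0.96 and 0.89. Exoc6b, an exocyst subunit, differed by 1.00 and 0.80, with 0.22 and 0.60 for its other 2 probes in the additive fit. Fam100a, now Ubald1, differed by 0.76 and 0.66.

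**Figure D2:**
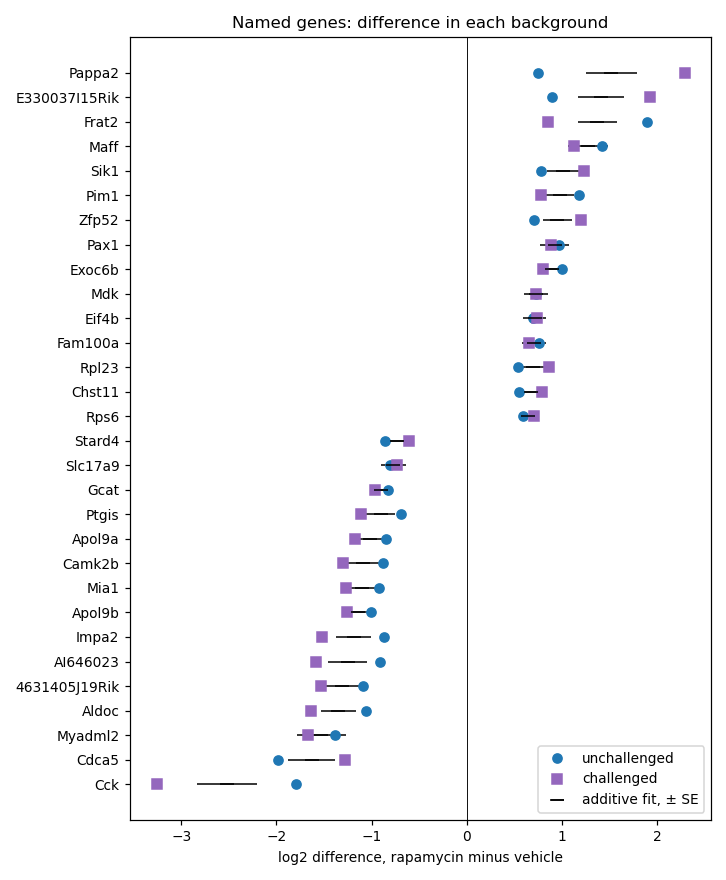
For the 30 named genes, blue circles give the log2 difference in unchallenged mice, purple squares that in challenged mice, and black marks the additive difference with its SE (6 against 6 arrays). Among the 30, the points lie furthest apart for Pappa2, Cck, Frat2 and E330037I15Rik, whereas both points nearly coincide for Mdk, Eif4b and Slc17a9. The challenged point of Cck is not exact, since no BA+rapamycin array was well above background for it. The same holds for the unchallenged point of Cdca5, for which no rapamycin array was. Of 3 BA+rapamycin arrays, 1 was well above background for Myadml2 and 2 for Aldoc, Apol9a, AI646023 and Ptgis. For Frat2, 2 of 3 BA+DMSO arrays were.

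**Figure D3:**
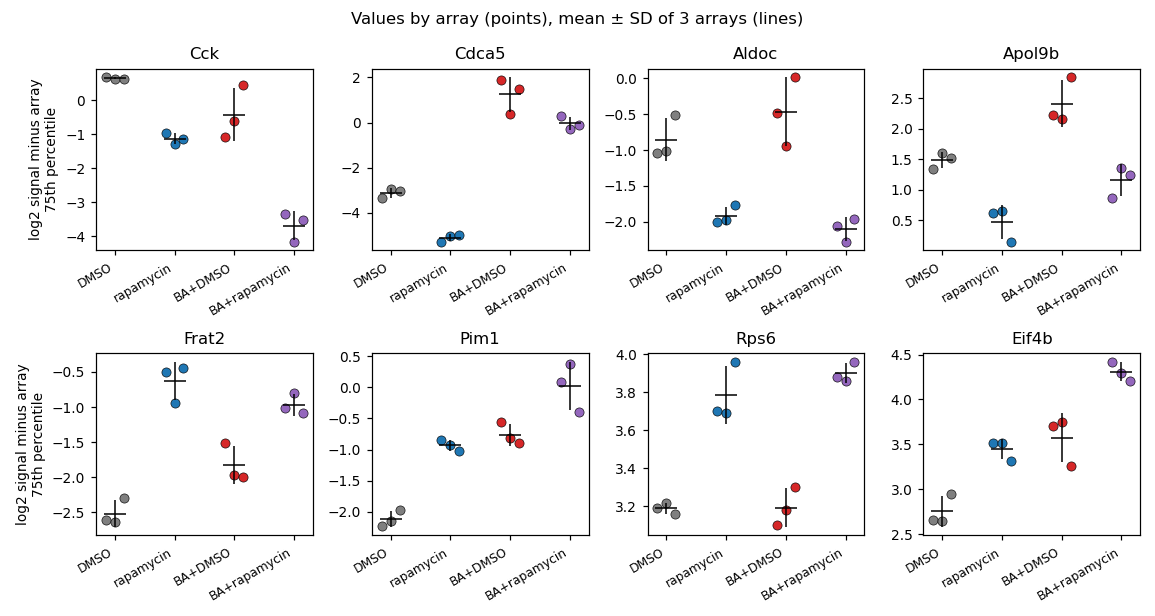
Levels of 8 named genes on each of the 12 arrays (points), with the mean ± SD of 3 arrays, as log2 signal minus the 75th percentile of the array. In each panel the rapamycin arrays lie wholly on one side of the vehicle arrays of the same background.

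Components of the ribosome were higher with near uniform direction. Rps6, the ribosomal protein that S6 kinase phosphorylates, stood at 3.19, 3.22 and 3.16 in DMSO and 3.70, 3.69 and 3.96 in rapamycin (probe at mm9 chr4:86500063-86500122). In challenged mice it stood at 3.10, 3.18 and 3.30 without and 3.88, 3.86 and 3.96 with rapamycin. Each drug array lay above all 6 vehicle arrays, and the additive difference was 0.65 ± 0.101 (adjusted p = 0.0537). Its other 2 probes differed by 0.45 and 0.48. Rpl23, a large subunit protein, differed by 0.54 and 0.86 in the 2 backgrounds, with 0.37 and 0.40 for its other 2 probes in the additive fit.

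All 79 cytosolic ribosomal protein genes were higher in the additive fit, and none was called. In both backgrounds 78 of the 79 were higher, 52 had an unadjusted p under 0.05 (background 7.15%), and in 49 the groups did not overlap in either background (background 2.43%). The median difference was 0.32, with 0.20 in unchallenged and 0.44 in challenged mice, against 0.0025 for all probes tested. Of all 182 tested probes of these genes, 181 were higher. Rpl12, a large subunit protein, differed by 0.48. The list's median on single arrays, taken relative to the vehicle mean of the background, was 0.13, 0.24 and 0.24 in rapamycin and 0.48, 0.47 and 0.39 in BA+rapamycin. In DMSO it was 0.01, 0.03 and -0.05, but in BA+DMSO it was 0.18, -0.34 and 0.15.

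The ribosomal protein probes are among the brightest on the array, and bright probes in general were higher in the challenged comparison. The 241 other probes at or above the list's median level had a median difference of 0.54 in challenged mice, more than the ribosomal protein genes, but of -0.01 in unchallenged mice. The 1508 other probes within the list's range of levels had medians of 0.04 and 0.25 in unchallenged and challenged mice, and 43.8% of them were higher in both. In 17.7% of these 1508 probes every rapamycin array lay above every vehicle array of its own background. That share was 26.6% for the 241 probes and 62% for the ribosomal protein list. After quantile normalization, which forces equal distributions on all arrays, 68 of the 79 genes were higher, 47 in both backgrounds, and 8 had an unadjusted p under 0.05. The median was then 0.13 in unchallenged, 0.07 in challenged mice and 0.10 in the additive fit. The part of signal brightness in the challenged difference was not tested further. Probes of these genes may also bind RNA of their many processed pseudogenes.

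Translation factors and other TOP mRNAs, a list put together after the ribosomal protein values had been seen, had a median difference of 0.38, with 0.34 in unchallenged and 0.36 in challenged mice. Of its 18 genes, 17 were higher in the additive fit, 16 in both backgrounds, 10 had an unadjusted p under 0.05 (background 7.15%) and none was called. The median was 0.26 after quantile normalization, when 16 of the 18 were higher. Eif4b, an initiation factor that S6 kinase phosphorylates, stood at 2.66, 2.65 and 2.95 in DMSO, 3.51, 3.52 and 3.32 in rapamycin, 3.71, 3.75 and 3.26 in BA+DMSO and 4.42, 4.29 and 4.21 in BA+rapamycin. Its difference was 0.71 ± 0.122, and its other 2 probes differed by 0.37 and 0.64. Eef2, the elongation factor that moves the ribosome along the mRNA, differed by 0.64 and 0.54, and Eif3f, an initiation factor subunit, by 0.63 and 0.39. Vim was the member that was lower (-0.16). Genes for ribosome biogenesis, the factors that assemble ribosomes, did not share this pattern, with 20 of 55 higher and a median of -0.05 that changed sign with the scaling.

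**Figure D4:**
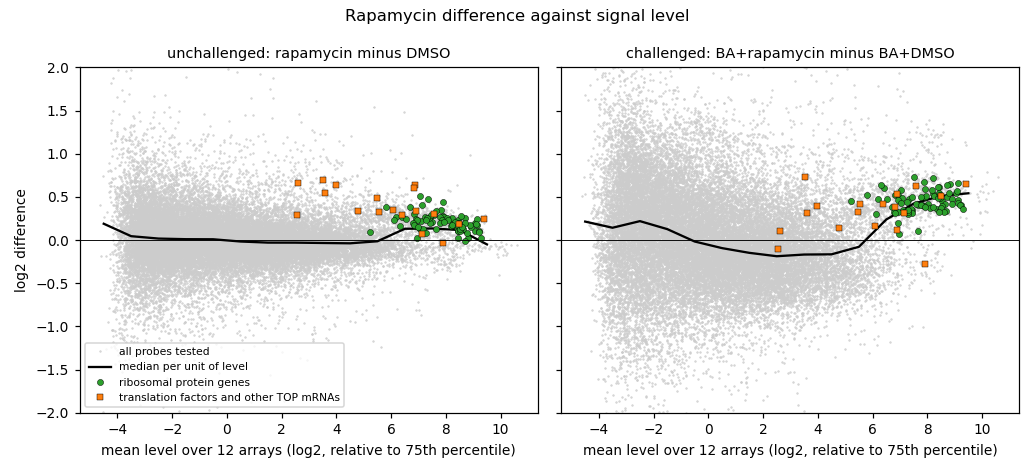
The log2 difference of each probe (grey) is plotted against its mean level over the 12 arrays, for unchallenged mice on the left and challenged mice on the right, with the median per unit of level as a black line; the y axis runs from -2 to 2. In unchallenged mice the ribosomal protein genes (green circles) and the translation factors and other TOP mRNAs (orange squares) lie mostly above the line of all probes, whereas in challenged mice the line itself climbs at the brightest levels and the green points follow it.

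Sterol synthesis genes were mostly lower with rapamycin in both backgrounds, and their median was further from 0 in unchallenged mice, a gap that was not tested. Of 26 tested genes, 25 were lower, 23 in both backgrounds, 19 had an unadjusted p under 0.05 (background 7.58%), and none was called. The median was -0.74 in the additive fit, -0.75 in unchallenged and -0.49 in challenged mice. On single arrays the list stood at -0.72, -0.86 and -0.83 in rapamycin against 0.10, -0.05 and -0.04 in DMSO. In challenged mice it stood at -0.46, -0.32 and -0.74 with rapamycin, while BA+DMSO replicate 2 (-0.52) lay among these and replicates 1 and 3 (0.21 and 0.40) above them. The median was -0.61 without BA+DMSO replicate 3 and -0.87 without replicate 2.

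Dhcr7, which completes cholesterol synthesis, differed by -1.25 in unchallenged mice and was at least 1.77-fold lower in challenged mice (limma adjusted p = 0.0652 in the additive fit). Its challenged values were -1.35, -2.75 and -1.36 in BA+DMSO and -3.11, -2.82 and -3.56 in BA+rapamycin, where no array was well above background. Idi1, the isopentenyl diphosphate isomerase, stood at 2.43, 2.06 and 2.06 in DMSO and 0.63, 0.33 and 0.89 in rapamycin. It stood at 3.00, 0.76 and 2.68 in BA+DMSO and 1.23, 1.84 and 1.03 in BA+rapamycin, so that BA+DMSO replicate 2 lay below all 3 drug arrays. Genes of fatty acid and lipid synthesis had a smaller median of -0.15, with 16 of 21 lower. Of the 21, 3 had an unadjusted p under 0.05 (background 7.58%), among them the desaturase Scd2 (-1.08). With the title date as a block over the 10 dated arrays the median of this list was -0.03.

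Mitosis genes gave the largest list median among the proliferation genes. Of 50 tested genes, 49 were lower, 42 in both backgrounds, and 32 had an unadjusted p under 0.05 (background 7.58%). None was called. The median was -0.87 in the additive fit, -0.54 in unchallenged and -1.24 in challenged mice, and without BA+DMSO replicates 1, 2 or 3 the additive median was -0.59, -1.12 and -0.75. On single arrays the list stood at -0.60, -0.47 and -0.39 in rapamycin, below DMSO (-0.014, -0.0037 and -0.0043). In challenged mice it stood at -1.02, -1.30 and -1.30 with rapamycin, but BA+DMSO spread from 0.98 and 0.28 in replicates 1 and 3 to -1.22 in replicate 2. Of the 50 genes, 7 were not well above background on any unchallenged array. Over the other 43, 36 were lower in both backgrounds and the unchallenged median was -0.38. The groups overlapped in challenged mice, and 5 of the 50 genes (background 2.44%) showed no overlap in either background.

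Ccna2, the cyclin of S phase and G2, stood at -2.52, -2.15 and -1.75 in DMSO and -4.88, -3.41 and -3.34 in rapamycin, where 2 of 3 arrays were well above background. Under challenge it stood at 3.10, 0.73 and 2.32 without and 0.95, 0.43 and 0.59 with rapamycin. Pbk, a mitotic kinase, differed by -1.84 in challenged mice and was not well above background on any unchallenged array. Of 45 DNA replication genes, 42 were lower, 34 in both backgrounds, against 30.7% of all probes. In this list 17 genes had an unadjusted p under 0.05 (background 7.58%), and none was called. The list median was -0.50, with -0.14 in unchallenged and -0.88 in challenged mice. On the arrays BA+DMSO replicate 2 (-0.81) again lay among the drug arrays (-0.71 to -1.12). Tk1, thymidine kinase, differed by -0.74 and -1.54, and Rrm2, a ribonucleotide reductase subunit, by -0.55 and -1.30. Of 21 G1 cyclins and inhibitors 17 were lower, 11 in both backgrounds, with medians of -0.0052 in unchallenged and -0.47 in challenged mice. In this list Myc, a driver of growth, was higher by 0.86 and 1.28 (adjusted p = 0.22).

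Interferon response genes were lower in 40 of 43 cases, 34 of them in both backgrounds, and 26 had an unadjusted p under 0.05 (background 7.58%). None was called, and 8 showed no overlap in either background (background 2.44%). The median was -0.47 in the additive fit, -0.20 in unchallenged and -0.78 in challenged mice. On single arrays the list stood at -0.31, -0.19 and -0.15 in rapamycin against -0.02, -0.03 and 0.07 in DMSO. The challenged arrays stood at -0.57, -0.98 and -0.69 with the drug and at 0.11, -0.40 and 0.27 without, so that here the groups did not overlap. Cmpk2, a mitochondrial nucleotide kinase induced by interferon, stood at -1.54, -1.34 and -1.09 in DMSO, -1.97, -1.78 and -1.80 in rapamycin, -1.21, -1.41 and -0.48 in BA+DMSO and -2.87, -4.45 and -2.74 in BA+rapamycin, where it was not well above background and at least 2.97-fold lower. Mx1, an antiviral GTPase, differed by -0.76 and -2.04 (1 of 3 arrays well above background in each drug group), and Ifit3, which restrains translation of viral RNA, by -0.51 and -2.01.

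**Figure D5:**
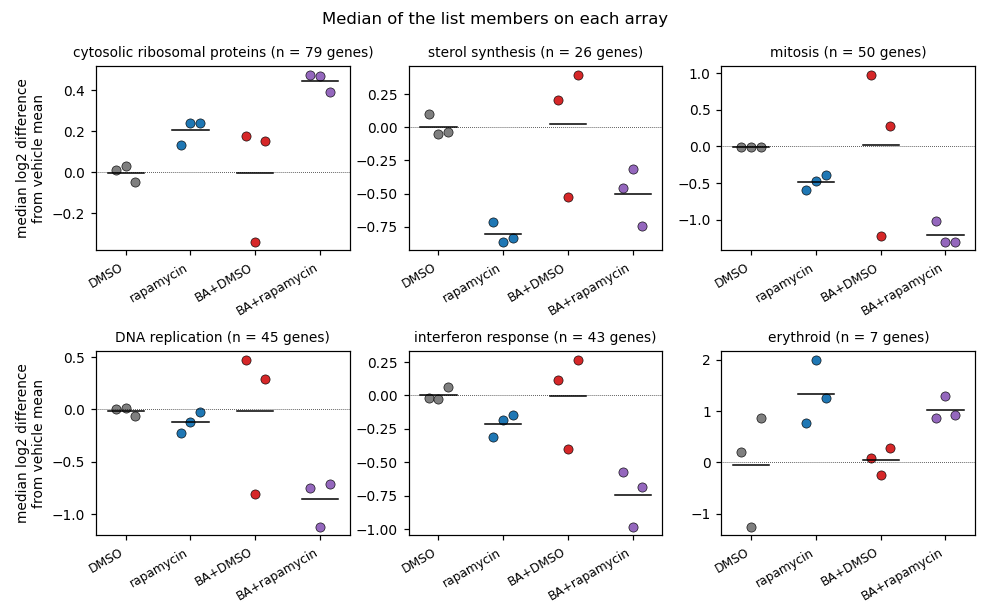
Each point is 1 array and gives the median over the list members of the log2 difference from the mean of the 3 vehicle arrays of the same background; the black line is the group mean. DMSO and rapamycin arrays separate for ribosomal proteins, sterol synthesis, mitosis and the interferon response but overlap for DNA replication and erythroid genes, whereas BA+DMSO replicate 2 (the lowest red point) lies among or near the BA+rapamycin arrays for sterol synthesis, mitosis and DNA replication.

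Genes of several metabolic groups were also mostly lower. Of 66 oxidative phosphorylation genes, 63 were lower, 56 in both backgrounds, with a median of -0.34 (-0.15 and -0.52) and 25 at an unadjusted p under 0.05 (background 7.58%). With the title date as a block over the 10 dated arrays the median was -0.18. The brown adipocyte list, markers of a cell rich in mitochondria, had 12 of 15 genes lower, 9 in both backgrounds, against 30.7% of all probes. The list median was -0.36 (-0.40 and -0.22), and -0.07 with that block. Of 3 markers checked singly, Cidea differed by 0.22 and -1.65 and Ucp1 by 1.97 and -1.8, so neither moved alike. Ucp1 was well above background on 5 of 12 arrays and Elovl3 on none. The part of the list in the result was not tested. Ndufb8, a complex I subunit, differed by -0.27 and -0.86. Of 42 genes of the ATF4 response, amino acid metabolism and tRNA charging, 35 were lower with a median of -0.25 (-0.11 and -0.46). Of the 42, 13 had an unadjusted p under 0.05 (background 7.58%). Psat1, an enzyme of serine synthesis, differed by -0.80 and -1.59, Aldh1l2, a mitochondrial folate enzyme, by -1.05 and -1.66, and Gdf15, a secreted stress hormone, by -0.90 and -1.53. For further lists the difference between the backgrounds was not tested. Proteasome genes were lower in 32 of 36 cases, with medians of -0.07 in unchallenged and -0.43 in challenged mice, and 2 had an unadjusted p under 0.05 (background 7.58%). For glycolysis and the hypoxia response (23 of 31 lower, 8 at an unadjusted p under 0.05, background 7.58%) the medians were -0.07 and -0.36. For lysosome and autophagy (44 of 63 lower) they were 0.02 and -0.28. Only 3 of these 63 (4.76%) were lower at an unadjusted p under 0.05, less than the background of 7.58%. In both backgrounds 24 of the 63 were lower, against 30.7% of all probes. BA+DMSO replicate 2 lay below all BA+rapamycin arrays for the proteasome (-0.48 against -0.42 to -0.44), among them for lysosome and autophagy (-0.33) and next to them for glycolysis (-0.34 against -0.36 to -0.54). For oxidative phosphorylation it also lay among them (-0.424 against -0.42 to -0.572). The unchallenged groups overlapped for that list as well, with rapamycin replicate 3 (-0.02) above DMSO replicate 3 (-0.06). With the title date as a block the additive median was -0.10 for glycolysis and the hypoxia response, against -0.28 without it. For the proteasome it was -0.12 against -0.22. No gene of these lists was called.

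Components of the mTOR pathway themselves, with the rapamycin binding proteins, showed little common movement. Of 63 tested genes 22 were higher and 41 lower, with a median of -0.11 (-0.04 and -0.20), and 5 and 8 had an unadjusted p under 0.05 (backgrounds 7.15% and 7.58%). None was called. Irs2, the insulin receptor substrate upstream of the pathway, was higher by 0.87 and 1.60 (adjusted p = 0.191). Fkbp5, which binds rapamycin and is also induced by corticosteroids, was higher by 1.75 and 0.23 (adjusted p = 0.281). Tbc1d7, the third subunit of the TSC complex, differed by -0.41 and -0.83 without overlap in either background, as did Fkbp2 (-0.27 and -0.65), a rapamycin binding protein. Rictor (0.20 and 0.35), Prr5 (0.55 and 0.40) and Mapkap1 (-0.17 and -0.51), subunits of mTORC2, did not share a direction.

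Markers of red blood cells were higher with rapamycin in both backgrounds. Of 7 tested erythroid genes 6 were higher, all 6 with an unadjusted p under 0.05 (background 7.15%), and none was called. The list stood at 0.77, 2.00 and 1.25 in rapamycin against 0.20, -1.25 and 0.87 in DMSO, where the groups overlapped. The challenged arrays stood at 0.86, 1.29 and 0.91 with the drug and at 0.08, -0.25 and 0.29 without. Hbb-b1, the adult beta globin, differed by 1.54 and 1.16, and Alas2, the first enzyme of haem synthesis in erythroid cells, by 1.45 and 1.16. The part of blood content in the other differences was not tested.

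Markers of other cells of the vessel wall moved less uniformly. Of 31 cytokine and chemokine genes 24 were higher, 16 (51.6%) in both backgrounds against 29% of all probes. The list median was 0.30 (0.46 and 0.11), and 7 genes were higher at an unadjusted p under 0.05 (background 7.15%). The additive median of this list ran from 0.21 to 0.56 over all settings. Saa3, an acute phase protein, differed by 1.75 and Cxcl14 by 2.47 in challenged mice. Neither was well above background on a DMSO array, and 2 (Saa3) and 1 (Cxcl14) of the 3 rapamycin arrays were. Of 32 targets of the corticosteroid receptors 26 were higher, 14 (43.8%) in both backgrounds against 29% of all probes. The list median was 0.36 (0.62 and 0.18), and the metallothionein Mt2 differed by 1.22 and 0.83. The clock genes, which follow the time of day, had 12 of 18 higher and a median of 0.26 (0.19 and 0.06). Only 6 of the 18 (33.3%) were higher in both backgrounds, near the 29% of all probes. Over all settings the additive median of the clock list ran from 0.04 to 0.44. Fibroblast (0.31 and -0.03), endothelial (0.21 and 0.07) and macrophage (0.66 and -0.11) lists had higher medians in unchallenged than in challenged mice. Collagens and fibrillar matrix (25 of 54 higher, median -0.02) and contractile smooth muscle (13 of 38 higher, median -0.07) were near the median of all probes. The contractile median was -0.11 in unchallenged mice, where 31 of the 38 were lower, and 0.00043 in challenged mice. Its rapamycin arrays (-0.174 to -0.0553) lay narrowly below its DMSO arrays (-0.0451 to 0.02). The difference between the backgrounds was not tested for this list. T cell, NK cell and B cell genes had a median of -0.06, with 5 genes higher and 6 lower in both backgrounds. Cd3e, the subunit of the T cell receptor complex that was measured on all 12 arrays, differed by -0.27 and 0.17. The members furthest from 0 in one direction were Cd3d (-1.80 and -0.80), Cd3g (-1.29 and -1.10) and the T cell kinase Lck (-1.32 and -0.57). Lck was well above background on all 12 arrays. Cd3d and Cd3g were well above it on 6 of 12, with 1 of 3 rapamycin arrays and no BA+rapamycin array among them. The differences and rank of Cd3d and Cd3g are thus not exact. In all 3 genes the groups overlapped in challenged mice, and none was called.

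Further readings used only arrays that share a slide or a date in their titles. On slide 1, rapamycin replicate 1 against the 3 DMSO arrays (no test) gave medians of 0.13 for ribosomal proteins, -0.72 for sterol synthesis, -0.60 for mitosis and -0.31 for the interferon response. Among the 4 unchallenged arrays with a common title date (2 against 2), the medians were 0.25, -0.75, -0.37 and -0.18. In challenged mice 1 array of each group shared a title date (BA+rapamycin replicate 1 and BA+DMSO replicate 1), BA+DMSO replicates 2 and 3 carry no date, and the pair (no test) gave 0.29, -0.68, -1.99 and -0.68. With slide as a fixed block the additive fit called 1 probe, not Cck. With the title date as a block over the 10 dated arrays, an alternative chosen after seeing the data, it called 0 (limma, 2396 probes at an unadjusted p under 0.05), and the medians were 0.26, -0.78, -0.94 and -0.36.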

How the data were processed

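Total RNA of mouse aorta was hybridised to 12 1-colour Agilent arrays. The deposited intensity values, per the file headers, are spot signals that Feature Extraction 10.7.1.1 had background-subtracted and detrended but not normalized between arrays, and the deposited flags mark outlier spots and spots well above background. The submitters' processing notes name version 9.5.1.1. Control and outlier spots were left out, and replicate spots were reduced to their mean per probe. Each array's log2 signal was centred on its 75th percentile. Of 55675 usable probes, the 27801 that were well above background on every array of at least 1 group were tested with limma 3.58.1 (R 4.3.3), with challenge and rapamycin as terms and Benjamini-Hochberg adjustment. A model with 4 group means gave the difference in each background and the interaction. The scripts were tested on simulated data. The number of arrays (3 per group) limits the precision.

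Named genes were the 15 largest rises and falls among called probes with a symbol, the same sign in both backgrounds and signal on all 6 arrays of the higher arm, filled with the next smallest p where fewer were called. Added were up to 3 genes of each list and the genes of the mTOR list. List members were represented by 1 probe per gene. The members, lists and tests were chosen with earlier results of these data known, and the list of translation factors after values had been seen. The deposited table of processed values was used as an alternative. Unmapped columns numbered 0. Promoters came from RefSeq (GRCm38.p6), and probe positions are those of the array design (mm9). Some items are not reported here.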

Additional observations from a re-analysis of the deposited data

Results flagged for a closer look

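In 2 lists every rapamycin array lay on one side of the vehicle mean in unchallenged mice and every BA+rapamycin array on the other side in challenged mice. The macrophage list had a median difference of 0.658 in unchallenged and -0.107 in challenged mice. Its groups overlapped in both backgrounds, since DMSO replicate 1 (0.66) lay among the rapamycin arrays (0.48 to 0.84) and all BA+rapamycin arrays (-0.27 to -0.014) lay inside the BA+DMSO range (-0.71 to 0.61). The list of mesothelium and neighbouring organs had 0.428 and -1.22. There DMSO (-0.65 to 0.80) enclosed all rapamycin arrays (0.18 to 0.73), and BA+rapamycin replicate 3 (-0.037) lay inside the BA+DMSO range (-0.40 to 0.39). The difference between the backgrounds was not tested for either list.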

How the results depend on the processing

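The additive fit called 2 probes. Under other settings it called 33 (quantile normalization), 129 (75th percentile over probes well above background on all 12 arrays, under which the median of all probes was 0.0844), 0 (normexp), 31 (deposited matrix), 0 (no filter), 40 (probes well above background on all 12 arrays), 1 (slide as a fixed block), 34 (slide as a random block), 1323 (array weights), 829 (the log2 75th percentile as a covariate) and 85 (average of the background differences in the model with 4 group means). Leaving out 1 array gave 0 to 205 called probes and 3083 to 7445 at an unadjusted p under 0.05, and array weights gave 6147 of the latter. With the title date as a block over the 10 dated arrays, chosen after seeing the data, these were 0 and 2396. The cause was not tested, though this fit had fewer arrays. In unchallenged mice the 6 arrays alone gave 3 called probes, the 4 arrays of a common title date 0, and leaving out 1 array 0 to 4. In challenged mice the 6 arrays alone gave 0, and leaving out 1 array 30 to 11092. The interaction gave 0 to 3058. The ribosomal protein median was 0.0979 after quantile normalization. Of 742 differences of the 30 named genes under 25 settings, 244 were called. The 30 were chosen by their p in these same arrays, so this count is no further support. All 30 were called with array weights and with the percentile covariate, settings that called 1323 and 829 probes in all. The Cck call was lost with normexp (difference -1.23, adjusted p = 0.0537), with no filter (-2.52, 0.101), with slide as a fixed block (-2.71, 0.064) and with the title date block (-1.99, 0.326). The call of the chromosome 1 transcript was lost with normexp, with no filter and with the title date block, which called 0 probes.

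Some list medians near 0 changed sign. Quantile normalization gave 0.00816 for ribosome biogenesis, -0.0497 for the synthetic cytoskeleton and -0.00895 for the sarcomere. The 75th percentile over probes well above background on all 12 arrays gave 0.0323 for ribosome biogenesis, 0.00996 for contractile smooth muscle, 0.0608 for collagens and 0.0227 for T, NK and B cells, and slide as a fixed block gave 0.0705 for the last. The title date block gave 0.0275 for ribosome biogenesis, 0.0264 for lysosome and autophagy, 0.0734 for contractile smooth muscle, -0.043 for immediate early and heat shock genes, 0.285 for adipocytes and 0.167 for mesothelium. Leaving out 1 array gave -0.1 to 0.0164 for ribosome biogenesis, -0.19 to 0.0167 for contractile smooth muscle, -0.114 to 0.0849 for collagens, -0.174 to 0.0686 for T, NK and B cells, -0.51 to 0.00376 for adipocytes, -0.00735 to 0.173 for nerve, -0.359 to 0.207 for the sarcomere and -0.518 to 0.122 for mesothelium.

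No paired analysis was possible over all 12 arrays because title numbers repeat within DMSO and BA+rapamycin and the replicate numbers follow accession order. Title date and number together match DMSO replicates 2 and 3 with rapamycin replicates 2 and 3. No BA+rapamycin array matches a BA+DMSO array in both. The matched arrays were not tested as pairs. Dates in the titles tie some arrays across groups, and the fit with the title date as a block over the 10 dated arrays is given above.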
